A study of Mus musculus with 2 samples.

Results

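Mir132 and Mir212 are neighbouring microRNA hairpins of mouse chromosome 11, and they were found among the annotated hairpins by their GENCODE M21 symbols and Ensembl gene identifiers (ENSMUSG00000065537.2 and ENSMUSG00000065590.1). These are 2 of the 2202 hairpins in the count tables, and both were detected in every library. The RNA came from whole hearts of 2 female B6CASTF1/J mice, the F1 hybrid of C57BL/6J and CAST/EiJ, aged 25 days, with no treatment or altered gene named in the labels. The labels call them biological replicates 1 and 2 and number the animals separately, but give both the same donor identifier. Both libraries form 1 group, so no condition was compared, and every test below compares the reads of these libraries. A free-text label gives the age in months where the age field gives days. Reads of the C57BL/6J and CAST/EiJ alleles were not separated in the tables.

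A microRNA is cut from a folded precursor, the hairpin, which can release a mature strand from its 5′ side (5p arm) and one from its 3′ side (3p arm). The mature strand guides Argonaute proteins to messenger RNAs that pair with its seed, the bases 2 to 8 from the 5′ end, and lowers their output. Mir132 and Mir212 are processed from a common primary transcript that is induced through the transcription factor CREB. In the heart both are known to promote cardiomyocyte growth, with the transcription factor gene Foxo3 as a known target, and Mir132 is also known from neurons and blood vessels.

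The sequences are shown because the members share 1 seed and differ elsewhere, which bears on both their function and how reads can be told apart. They are the RefSeq entries on GRCm38.p6, the build also called mm10, and both members had an entry with the coordinates of the count tables' annotation. In the mature strands the capitals mark the seed, and in the hairpins they mark the mature arms.
mmu-miR-132-3p: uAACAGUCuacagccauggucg
mmu-miR-212-3p: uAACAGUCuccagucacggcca
mmu-miR-132-5p: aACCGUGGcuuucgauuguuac
mmu-miR-212-5p: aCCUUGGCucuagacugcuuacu
Mir132 hairpin: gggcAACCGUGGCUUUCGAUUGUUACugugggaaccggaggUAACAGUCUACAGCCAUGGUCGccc
Mir212 hairpin: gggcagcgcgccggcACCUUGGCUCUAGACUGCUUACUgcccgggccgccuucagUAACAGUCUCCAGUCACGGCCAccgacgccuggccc

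The 3p arms carried the same seed, AACAGUC, and of the 1738 mature microRNAs in the RefSeq table only these 2 had it at bases 2 to 8. The arms were identical at 17 of 22 positions, including the first 9 bases from the 5′ end. Counted from that end, with the miR-132 base first and the miR-212 base last, they differed by A10C, C14U, U17C, U20C and G22A. The 5p arms had different seeds, ACCGUGG in miR-132 and CCUUGGC in miR-212, and no other mature microRNA of the table had either. The longest run that the 5p arms shared was 5 nt.

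Neither hairpin shares a run as long as a mature strand with another hairpin. The longest run common to both members was 10 nt. Among the 2201 other hairpins, read on either strand, the longest run shared with Mir132 was 11 nt and that shared with Mir212 was 12 nt. No other hairpin shared 16 nt or more with either. The rest of the genome was not searched. The Mir212 hairpin was rich in G and C, at 69.2%, above 97.2% of the 288 hairpins with at least 10 counts in both libraries, which are called detected here. Mir132 had 57.6% G and C, against a median of 50.5% over detected hairpins.

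The locus lies on the plus strand of mm10, with Mir212 at chr11:75173388-75173478 and Mir132 at chr11:75173682-75173747. The hairpins are 91 and 66 nt long and are separated by 203 bp. Both sit in intron 1 of the non-coding gene 1700016P03Rik, annotated as a microRNA host with 3 exons and 1 transcript at chr11:75172560-75177633. Mir212 begins 828 bp after the start of the host. The nearest protein-coding gene before the hairpins is Hic1, a transcriptional repressor gene on the opposite strand, whose annotation ends 3869 bp away. Ovca2, also on the opposite strand, lies 2195 bp after Mir132 and overlaps the end of the host. The next annotated microRNA of the chromosome is 144741 bp away.

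**Figure D1:**
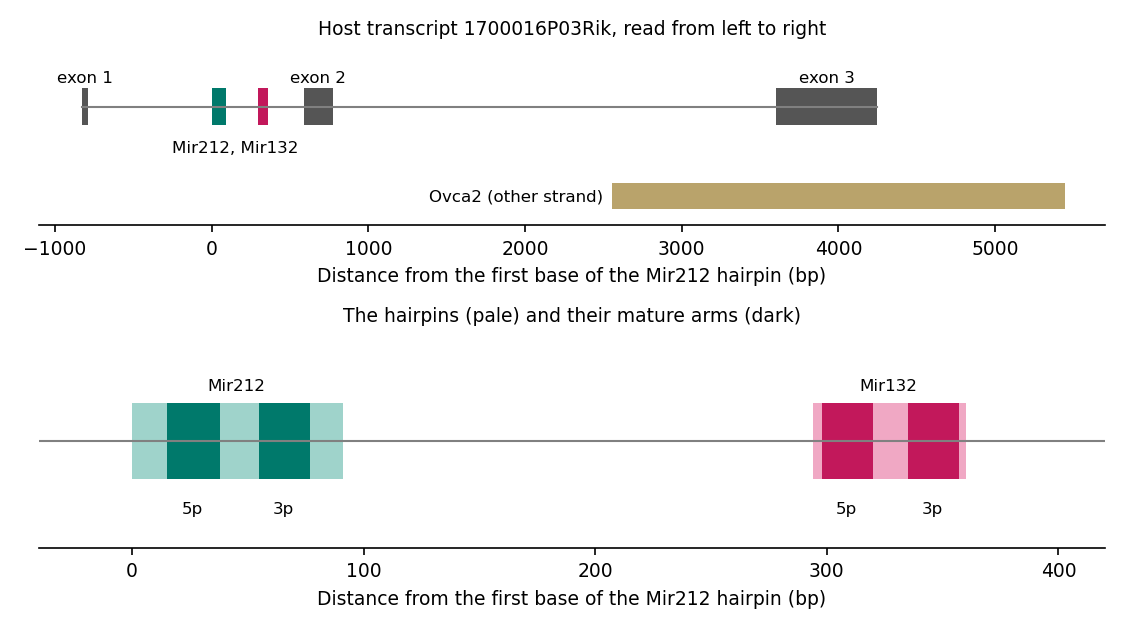
Map of the locus, drawn to scale by distance in bp from the first base of Mir212, with the host transcript above and the hairpins enlarged below. Mir212 and Mir132 lie 203 bp apart within intron 1 of 1700016P03Rik, and dark boxes in the lower map are the mature arms.

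Among the counted hairpins, Mir132 was at a moderate level in both hearts, and Mir212 at a low one. Levels are given as counts and as CPM, the count scaled by the summed hairpin counts of its library, with mean ± SD over the animals (n = 2). The summed hairpin counts were 2050498 for replicate 1 and 2661090 for replicate 2, or 41.0% and 41.2% of all reads. Mir132 had 718 counts in replicate 1 and 1080 in replicate 2. As CPM this was 350 (95% Wilson interval 325 to 377) and 406 (382 to 431), with a mean of 378 ± 39.4 CPM. The intervals of the animals did not overlap, although like all intervals here they cover the counting error of single libraries only.

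Mir212 had 25 counts in replicate 1 and 41 in replicate 2. As CPM this was 12.2 (95% Wilson interval 8.26 to 18.0) and 15.4 (11.4 to 20.9), with a mean of 13.8 ± 2.27 CPM. These intervals overlapped widely. The floor of 3 counts that a count of 0 would allow was 1.46 CPM in replicate 1 and 1.13 CPM in replicate 2, so Mir212 lay above it in both. Together the cluster held 0.0362% of hairpin counts in replicate 1 and 0.0421% in replicate 2.

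In the order of mean CPM over all hairpins, Mir132 was number 90 and Mir212 number 236. Mir132 exceeded 198 of the 288 detected hairpins, whose median was 94.2 CPM, and Mir212 exceeded 53 of them. Per kilobase of hairpin, Mir132 stood at 5727 CPM and Mir212 at 152 CPM, which put them at numbers 85 and 244. The ranks in the single libraries were close to these, 93 and 84 for Mir132 and 244 and 222 for Mir212. Hairpins with copies at other loci may be too low in these counts, because reads that matched several places were left out. The ranks of Mir132 and Mir212, and the numbers of hairpins that they exceeded, may therefore overstate their place.

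**Figure D2:**
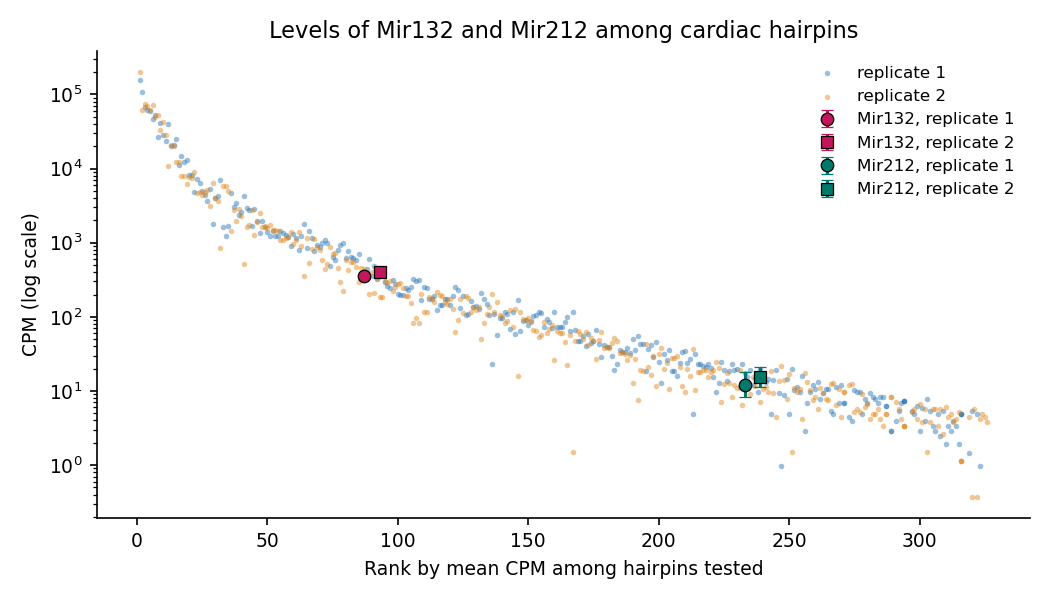
CPM on a log scale against rank by mean CPM for the 326 tested hairpins (10 or more counts in either library), values of 0 left out, with 95% Wilson intervals for the members, whose replicates are drawn slightly apart. Mir132 lies at 350 and 406 CPM and Mir212 at 12.2 and 15.4 CPM, with wider intervals for Mir212.

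Neighbours in this order could not be ranked against the members beyond the spread between the libraries. Mir25, of the cluster hosted by Mcm7, stood directly above Mir132 with 611 and 203 CPM, and Mir451a, an erythroid microRNA, directly below with 479 and 207 CPM. Both were above Mir132 in replicate 1 and below it in replicate 2. Mir5121 (19.0 and 9.02 CPM) and Mir3074-1 (15.1 and 11.6 CPM) enclosed Mir212 and changed sides in the same way. The hairpins most like Mir132 over both libraries, by distance on log2(CPM + 1), were Mir379 (398 and 437 CPM), Mir490 (393 and 450 CPM) and Mir30c-1 (324 and 336 CPM). Their distances were 0.21, 0.22 and 0.29. Those most like Mir212 were Mir493, Mir137 and Mir376a, at distances of 0.24, 0.32 and 0.32, and with 2 libraries this likeness rests on 2 values per hairpin.

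Within the cluster, nearly all counts came from Mir132 in both hearts. Mir132 supplied 718 of 743 counts in replicate 1, or 96.6% (exact binomial interval 95.1 to 97.8). It supplied 1080 of 1121 counts in replicate 2, or 96.3% (95.1 to 97.4), for a mean of 96.5% ± 0.207. Mir132 exceeded Mir212 by 28.7-fold in replicate 1 and 26.3-fold in replicate 2, and by 39.6-fold and 36.3-fold per base of hairpin. The larger folds per base follow from the hairpin lengths alone, and the mature arms of both are 22 or 23 nt long. The share did not pass a two-sided Fisher's exact test between the libraries (p = 0.799). The odds of Mir132 over Mir212 in replicate 2 were 0.917 times those in replicate 1, with a 95% interval of 0.530 to 1.56, set mainly by the low counts of Mir212. This comparison needs no scaling between libraries, and the tables do not say which arm the reads of either hairpin came from.

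The balance of most other neighbouring hairpins differed more between the libraries than that of Mir132 and Mir212, as a description with no test. Consecutive hairpins on 1 strand with starts within 1 kb and at least 10 counts in both libraries formed 45 pairs. The log2 ratio of upstream over downstream counts was -4.84 for Mir212 over Mir132 in replicate 1 and -4.72 in replicate 2, a difference of 0.12. The median absolute difference over the 45 pairs was 0.67, and 42 pairs differed by more than Mir212 and Mir132, while 2 differed by less. In 16 pairs the difference was over 1, or 2-fold. The largest belonged to Mir381 with Mir487b (2.69), Mir99a with Mirlet7c-1 (2.17), Mir362 with Mir501 (2.11), Mir497 with Mir195a (2.07) and Mir194-1 with Mir215 (1.98). On the same scale, the 95% interval from the Fisher table for the change of Mir212 over Mir132 ran from -0.64 to 0.92, so the low counts of Mir212 leave its size poorly fixed.

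The pair was also among the more uneven ones. The share of the larger partner had a median of 85.2% over the 45 pairs in replicate 1 and 92.9% in replicate 2, against 96.6% and 96.3% in the Mir132 and Mir212 pair. Taking the lower of the library values, 7 pairs were more uneven. Mir132 is the downstream partner, and the downstream partner was the larger in both libraries in 17 pairs, the upstream one in 26. In 2 pairs the larger partner changed between libraries. Several pairs contain hairpins with copies at other loci, such as Mirlet7c-1, whose shared reads enter no count. That limit does not apply to Mir132 or Mir212 among annotated hairpins, given the short runs that they share with others.

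**Figure D3:**
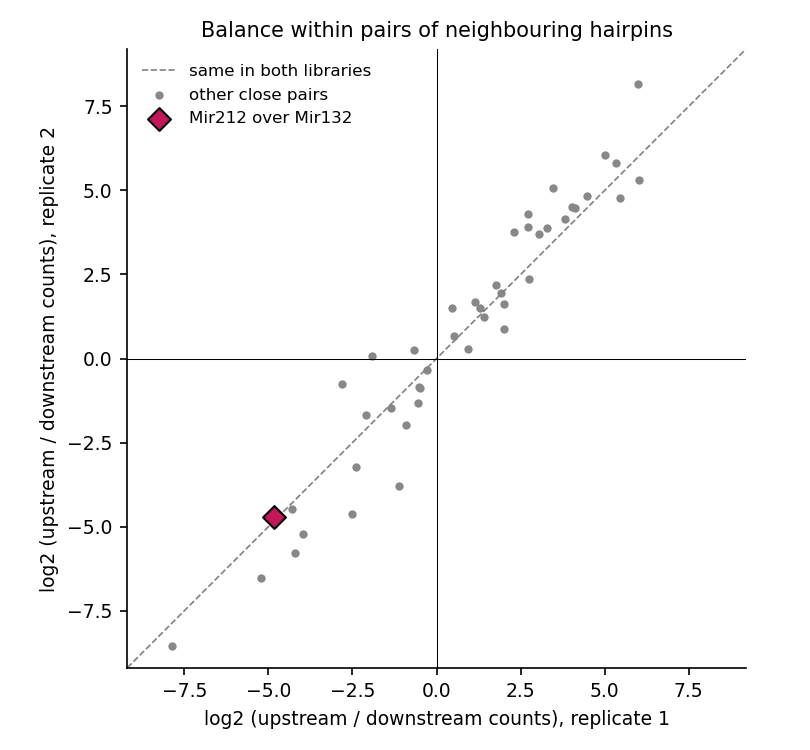
Log2 ratio of upstream over downstream counts in replicate 1 (horizontal) and replicate 2 (vertical) for the 45 close pairs of hairpins, with the dashed line marking equal balance. The diamond for Mir212 over Mir132, at -4.84 and -4.72, lies near the line and toward the uneven end.

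Mir132 was higher in replicate 2 than in replicate 1, and Mir212 had a ratio of similar size that did not pass the test. For this comparison the counts were scaled by TMM. An exact binomial test (two-sided) was then adjusted by Benjamini-Hochberg across 326 hairpins, those reaching 10 counts in either library. The TMM-scaled level of Mir132 was 323 CPM in replicate 1 and 440 CPM in replicate 2. Its fold was 1.36 (exact interval 1.24 to 1.50) and its log2 ratio 0.44, with an adjusted exact binomial p = 4.61e-10. The test called 62.6% of all tested hairpins different and 36.2% higher in replicate 2, so a call of this kind was common. For Mir212 the scaled levels were 11.3 and 16.7 CPM, with a fold of 1.48 (0.880 to 2.54), a log2 ratio of 0.53 and an adjusted exact binomial p = 0.194. The interval of Mir212 includes the fold of Mir132 and also 1.

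The differences of both members were near the middle of those of cardiac hairpins in size. The median log2 ratio of all tested hairpins was 0.09 and the median absolute log2 ratio 0.56. Of the 326 tested, 139 had a smaller absolute ratio than Mir132 and 158 a smaller one than Mir212. Among the 35 other tested hairpins within 2-fold of Mir132 in mean CPM, 13 were called higher and 15 lower, and 20 had a larger absolute ratio. Of the 78 within 2-fold of Mir212, 19 were called higher and 14 lower, and 45 had a larger absolute ratio. The biological coefficient of variation from edgeR, the spread between the libraries beyond counting error, was 0.467 over the tested hairpins. Scaling by total count instead of TMM gave Mir132 a log2 ratio of 0.21 (adjusted exact binomial p = 0.00441). It also moved the split of calls from 118 higher and 86 lower to 76 higher and 117 lower. Relative to the median of all hairpins, Mir132 was higher by 0.35 on the log2 scale under TMM and by 0.35 by total count. These values had to be nearly equal, because a change of scaling shifts the log2 ratios of all hairpins almost alike.

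**Figure D4:**
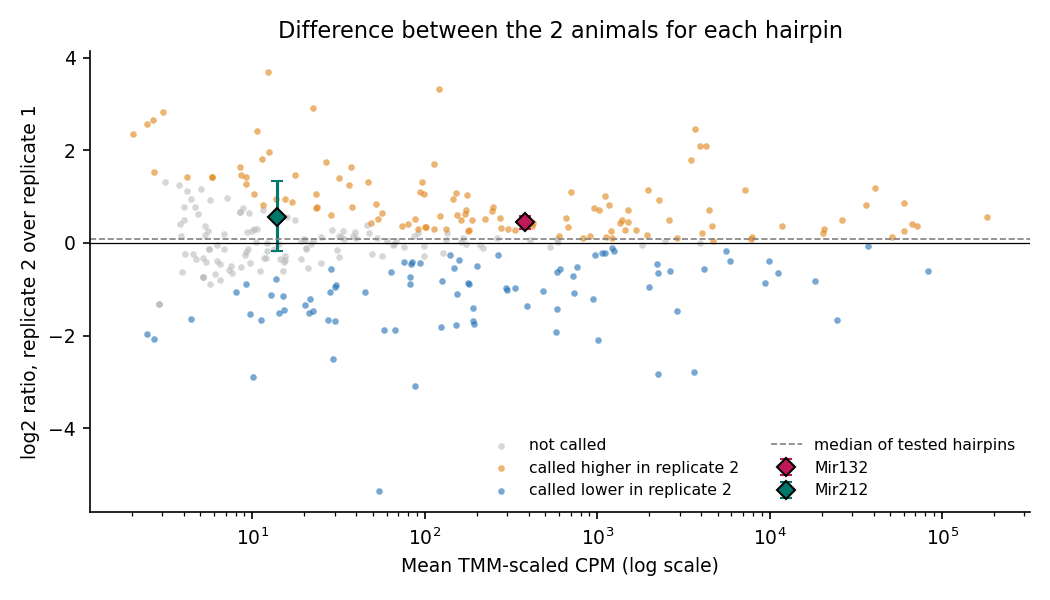
Log2 ratio of replicate 2 over replicate 1 against mean TMM-scaled CPM (log scale) for the 326 tested hairpins, coloured by the exact binomial call, with exact 95% intervals for the members, whose points carry no pseudocount. Mir132 (fold 1.36) and Mir212 (fold 1.48) both lie a little above the dashed median of 0.09, well inside the cloud.

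Markers of cell types that heart tissue holds moved in several directions between the same libraries. Few hairpins were tested for each type, and over all 326 tested hairpins 36.2% were called higher and 26.4% lower. In bulk tissue, fewer cells of a type and less RNA per cell cannot be told apart. Both markers of smooth muscle and pericytes, Mir143 and Mir145a, were higher in replicate 2, and their summed level went from 29354 to 48287 CPM. Of 6 leukocyte symbols, some of them other names of 1 gene, 4 were matched, and these hairpins were 3 higher and 1 lower, with summed levels of 4647 and 4648 CPM. Of the 2 endothelial hairpins, Mir126a was lower, and their sum went from 108082 to 60950 CPM, with Mir126b at 1 and 0 counts. Of 4 erythroid symbols, 3 were matched and all 3 hairpins were lower, and the sum went from 1783 to 869 CPM. Of the 3 cardiomyocyte hairpins, all hosted by myosin genes, Mir208a was higher, Mir208b lower and Mir499 not called (lower by total count), and their sum went from 4440 to 8291 CPM. Of the 5 fibroblast hairpins, Mir214 was lower, and Mir199b, at 29 and 28 counts, was not called. Mir21a was higher under TMM and not called by total count, where its log2 ratio was -0.05. The fibroblast sum went from 6244 to 2424 CPM, with Mir199a-1 at 0 in both and Mir199a-2 at 9 and 6 counts. Mir199a has copies at more than 1 locus and shared reads enter no count, so its counts and the sum may be too low. The part of any of these cell types in the ratio of Mir132 was not tested.

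Neurons are a known source of Mir132, and most of the neuronal hairpins were at or near 0. Of 8 hairpins, 5 had 0 counts in both libraries (Mir124a-1, Mir124a-2, Mir124a-3, Mir9-1 and Mir9-2), and Mir9-3 had 2 and 0 counts. Mir128-1, with 176 and 183 CPM, and Mir128-2, with 10.7 and 7.52 CPM, made up nearly the whole summed level of 187 and 191 CPM. That sum was below the level of Mir132 alone in both libraries. All 8 belong to sets of loci with near-identical mature strands, and reads that fit more than 1 place (38.5% of replicate 1 and 41.6% of replicate 2) were left out of hairpin counts. The zeros therefore do not show that these microRNAs were absent, and the summed level set beside Mir132 may be too low.

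Mir132 is often discussed with microRNAs induced by neuronal activity or CREB, and a list of 15 of these was set beside it. Of these, 14 were matched by symbol, and Mir146a was not. The hairpin annotated as Mir146 therefore stayed out of the list. It had 2814 and 2881 counts, above Mir132 in both libraries, and was called lower in replicate 2 (adjusted exact binomial p = 0.00685). Mir335, hosted by the imprinted gene Mest, exceeded Mir132 in both libraries, with 1238 and 1726 CPM. Mir125b-1, with 436 and 183 CPM, was above Mir132 in replicate 1 and below it in replicate 2. Mir125b-1 and Mir125b-2 are copies at separate loci, and reads that fit more than 1 place enter no count. The list also includes the neuronal hairpins above, with the same limit, and 5 of its 14 hairpins had 0 counts in both libraries. The levels of all these hairpins may therefore be too low. Of the 8 tested, 3 were called higher in replicate 2 (Mir335, Mir128-1 and Mir134) and 2 lower (Mir125b-1 and Mir381). Under TMM these shares were close to those over all 326 tested hairpins, 36.2% higher and 26.4% lower. In the list, the number called higher fell to 1 with DESeq2 size factors or total count scaling, and 2 and 3 were called lower. Among all 326 tested hairpins, 99 were called higher and 91 lower with DESeq2 size factors, and 76 and 117 by total count. The median log2 ratio of the list was 0.04, and it was -0.04 and -0.19 under these scalings. Over all tested hairpins the median was 0.09, and it was 0.01 and -0.14 under the same scalings. Mir134, a regulator of dendritic spines, had 44.9 and 51.9 CPM, below Mir132 and above Mir212 in both libraries.

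Beside other microRNAs linked to cardiac hypertrophy, Mir132 was of middling level and Mir212 was lower. The list held 16 hairpins described as promoting growth of the heart and 25 described as restraining it, a division from general knowledge that differs between experimental models. Of the 16, 10 exceeded Mir132 and 13 exceeded Mir212 in mean CPM. Of the 25, 11 exceeded Mir132 and 17 exceeded Mir212. Hairpins of the list with copies at other loci, such as those of Mir1a, Mir26a, Mir133a and Mir199a, may be too low in these counts. Mir132 and Mir212 share no long run with other hairpins. The growth-promoting list together held 11.5% and 10.2% of hairpin counts, and the Mir132 and Mir212 cluster 0.0362% and 0.0421%.

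Several hairpins of the promoting list were far above Mir132. Mir23a reached 59073 ± 17895 CPM and Mir22 25685 ± 20872 CPM. Mir27b (5620), Mir195a (3886), Mir208a (3741), Mir499 (2473), Mir214 (2380), Mir155 (2307), Mir21a (1939) and Mir221 (1086) also had a higher mean CPM than Mir132. Below Mir132 stood Mir350 (168), Mir208b (151), the microRNA of the fetal myosin gene Myh7, and Mir222 (51.4). Of the restraining list, Mir378a, Mir26b, Mir30d, Mir30a, Mir29a, Mir145a, Mir34a, Mir150, Mir98, Mir185 and Mir181b-2 had higher means than Mir132. Mir223, Mir101b and Mir26a-2 had lower ones, of 172, 77.4 and 46.5 CPM. The limit for hairpins with copies at other loci applies to Mir26a-2.

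Hairpins of these lists ranged from closer between the animals than Mir132 to much farther apart. Mir21a had 1974 and 1903 CPM and Mir499 2629 and 2317 CPM, a smaller relative difference than that of Mir132. Mir195a had 6913 and 858 CPM, Mir214 4251 and 508 CPM, and Mir208a 1620 and 5862 CPM, whereas Mir132 had 350 and 406 CPM. In the promoting list 6 of 14 tested hairpins were called higher in replicate 2 and 6 lower, with a median log2 ratio of -0.06. In the restraining list 8 of 18 were called higher and 9 lower, with a median of -0.31. Over all 326 tested hairpins 36.2% were called higher and 26.4% lower, and the median was 0.09. Both list medians lay below 0 under all 3 scalings used, at -0.29 and -0.54 by total count. The median of all tested hairpins also fell, to 0.01 with DESeq2 size factors and -0.14 by total count. Mir132 and Mir212 had ratios above 0 under each scaling. They were not alone in this direction, as 14 of the 32 tested hairpins of both lists were called higher under TMM.

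**Figure D5:**
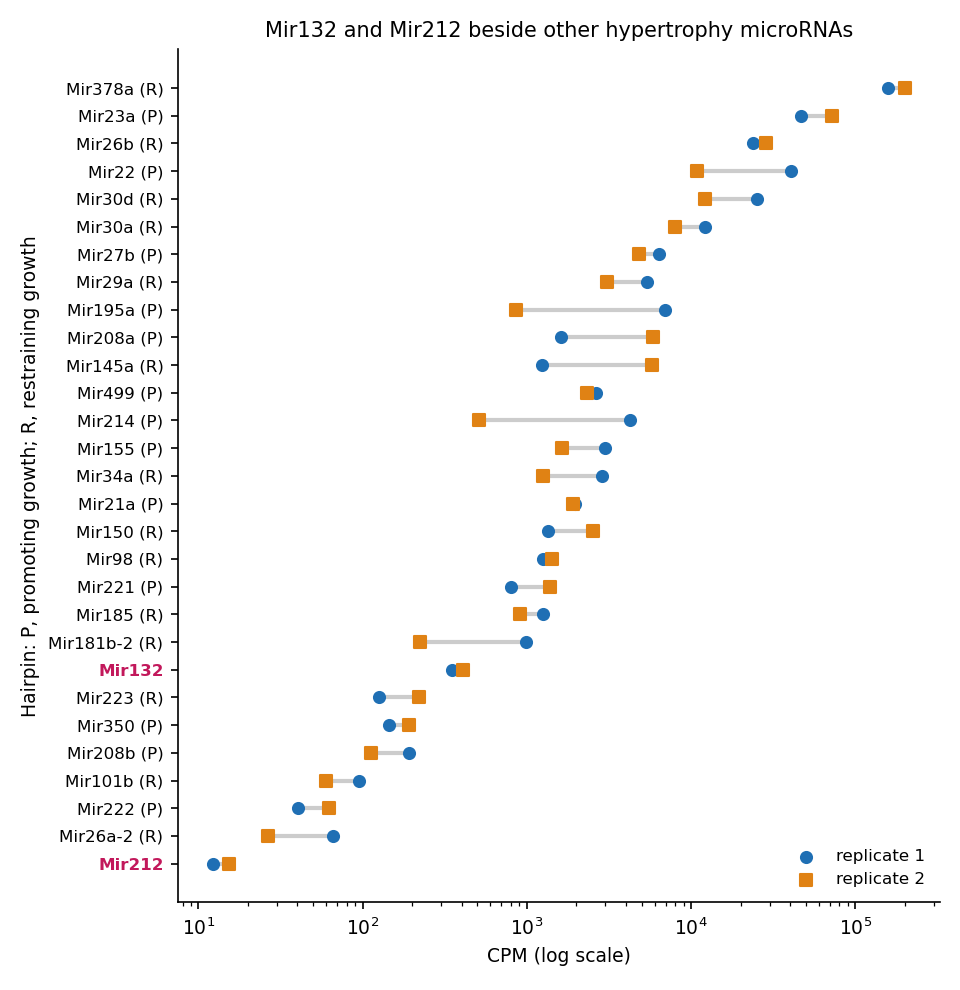
CPM on a log scale in replicate 1 (circles) and replicate 2 (squares) for Mir132, Mir212 and 27 hypertrophy hairpins that reached 100 counts in either library, ordered by mean, P marking growth-promoting and R growth-restraining hairpins. Mir132 at 350 and 406 CPM shows a short bar beside Mir195a, Mir214 and Mir208a. Mir212, at 25 and 41 counts, is below that minimum, so its place at the bottom follows from the choice of hairpins drawn.

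No read of Mir132 or Mir212 lay on the opposite strand in either library, and the counts taken without regard to strand were the same 718 and 1080 for Mir132 and 25 and 41 for Mir212. No annotated hairpin lies opposite them.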

How the data were processed

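MicroRNA-seq was done on heart RNA of 2 animals. The deposited values are raw counts of reads per annotated hairpin, in columns for either strand, the hairpin's strand and the opposite strand. Reads were placed on mm10 with GENCODE M21, per the file headers of the deposited text notes. The aligner and the counter are not given in the sources used here. Mature arms were not separated. The column for the hairpin's strand was used, and rows naming no hairpin stayed out of totals: in replicate 1 and 2, 38.5% and 41.6% of reads matched several places, 14.1% and 11.5% were unmapped and 6.48% and 5.64% lay in no hairpin. All 2202 identifiers matched GENCODE M21.

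TMM factors and the biological coefficient of variation came from edgeR 4.0.16 in R 4.3.3, and exact tests and intervals from SciPy 1.17.1. Log2 ratios (replicate 2 over replicate 1) used TMM-scaled CPM with a pseudocount of 1, and folds carry none. Adjusted p under 0.05 was a call. Alternatives were DESeq2 1.42.0 size factors, total count, the unstranded column, other count minimums, pseudocounts, denominators, pair distances, and leaving out a replicate or the 10 highest hairpins. The members and lists were chosen with earlier results of these data known. Named were the members, the 3 hairpins nearest to each and those directly above and below, the 5 close pairs with the largest difference, hypertrophy hairpins with at least 100 counts in either library and hairpins sharing a seed. Others were named after their values were seen.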

Additional observations from a re-analysis of the deposited data

How the results depend on the processing

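The call for Mir132 held under all 8 alternatives, with log2 ratios from 0.21 to 0.44 and adjusted exact binomial p up to 0.00441. The ratio of Mir212 stayed above 0 and uncalled under 7, from 0.31 to 0.55, and with at least 50 counts it was not tested. The pseudocount alternatives enter the ratio but not the test, so they could not change the call of either member. Leaving out a replicate gave 350 and 406 CPM for Mir132, 12.2 and 15.4 for Mir212, 362 and 421 for their sum, and 96.3% and 96.6% for the share; ratios between animals then have no value. Levels depend on the denominator. The unstranded column, with smaller hairpin totals, gave 534, 19.5 and 554 CPM for Mir132, Mir212 and their sum, all reads as denominator 155, 5.67 and 161, and leaving out the 10 highest hairpins 1220, 44.7 and 1265. Hairpins called higher in replicate 2 numbered 76 by total count and 74 with at least 50 counts, where 223 hairpins were tested and the median log2 ratio was -0.07; the cause was not tested. With at least 50 counts in both partners 29 close pairs were left, without Mir132 and Mir212. For the activity-responsive list, 1 of the 8 tested hairpins was called higher with DESeq2 size factors and 1 by total count. Over all 326 tested, 99 and 76 were. For this list and the hypertrophy lists, both of these scalings were chosen after seeing the data. The low counts of Mir212 limit every statement on it and on the balance within the cluster.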
